A study of Homo sapiens with 13 samples.

Results

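The 42 genes described here encode proteins of homologous recombination, the Fanconi anaemia pathway and mismatch repair, with the kinases that report DNA damage. They were taken by name from 17001 gene symbols that all 3 deposited count tables hold, and all 42 were found in each table. Their messages were counted by sequencing poly(A) RNA from A549, an established line of human lung adenocarcinoma, in 13 libraries, 1 per group. The study examined a transcription unit that holds PRR11, SKA2, miR-301a and miR-454. PRR11 and SKA2 share a bidirectional promoter.

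In the first set, CRISPRi_PRR11+SKA2 promoter-sgRNA#1 is a stable line in which CRISPR interference represses that shared promoter, and CRISPRi_Mock sgRNA is its control. In the second set, lentiviral lines with a CMV promoter were made to overexpress PRR11 (LV-PRR11), SKA2 (LV-SKA2) or both (LV-P+S), beside an empty vector line, called LV-vector-PS here. The third set holds lentiviral lines made to overexpress miR-301a (LV-miR301a), miR-454 (LV-miR454) or both (LV-3+4), beside their own vector line, called LV-vector-34 here. The fourth set holds lines made for knockout of the pre-miRNAs with a system the labels name CRISPRd, namely CRISPRd_miR301a-#2 and CRISPRd_miR454-#1, with CRISPRd_Control. The labels do not say whether a line is 1 clone, and no time after transduction is given.

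Homologous recombination repairs a broken chromosome by copying the intact sister. The MRE11, RAD50 and NBN complex recognises the break, nucleases resect it to a single strand, BRCA1, PALB2 and BRCA2 prepare that strand for the search for its copy, and helicases and nucleases take the joined molecules apart. The Fanconi pathway handles crosslinks between the strands: a core complex attaches ubiquitin to FANCD2 and FANCI, which then direct the incision. Mismatch repair corrects copying errors behind the replication fork. Many of these genes are transcribed mainly around S phase under E2F factors, so their level in a culture also follows how many cells are replicating.

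The libraries held 18671390 to 21717807 counts assigned to named genes. At this depth, 3 counts, the limit that a count of 0 allows, correspond to 0.136 to 0.165 CPM, the count scaled to library size. PRR11 had 14 counts in the CRISPRi library against 2029 in its control, and SKA2 had 5 against 1594. The library labelled LV-PRR11 had PRR11 at 109% of its vector. The library labelled LV-SKA2 had SKA2 at 84.4% of its vector and the library labelled LV-P+S at 88.7%, both below the control and against the label. MIR301A reads ran with the labels, at 29 in the library labelled LV-miR301a, 34 in the one labelled LV-3+4 and 0 in LV-miR454 and the vector. MIR454 reads went against 2 labels, with 468 in LV-miR454, 28 in the library labelled LV-miR301a, and none where LV-3+4 is the label. In the knockout set, PRR11 stood at 72.4% of CRISPRd_Control in CRISPRd_miR301a-#2 and at 68.5% in CRISPRd_miR454-#1. SKA2 stood at 99.1% of CRISPRd_Control in CRISPRd_miR301a-#2. In CRISPRd_miR454-#1 it had 807 counts, against 1249 in CRISPRd_Control. MIR301A and MIR454 had 0 counts in both knockouts and in CRISPRd_Control, so these counts cannot show whether either knockout worked. The deposited counts come from poly(A) RNA and do not measure mature microRNAs. A549 epithelial markers were present in every set.

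In the CRISPRi library all 42 repair genes lay below the mock guide library, and 29 of them were lower by the size rule used throughout. The rule asks for a log2 ratio of CPM + 0.5 of at least 1 in size and an exact 95% counting interval of the ratio that excludes equality. It compares 2 libraries and carries no p-value. Over all 15003 measured genes, 5.97% were lower and 9.43% were higher by the same rule, against 69.0% and 0.0% of the repair genes. The median log2 ratio of the 42 genes was −1.38, with quartiles of −1.78 and −0.80, and that of all measured genes was −0.04. With 1.5-fold in place of 2-fold in the rule, 35 repair genes were lower, against 16.8% of all genes. In bulk RNA, fewer cells expressing a gene and less RNA per cell cannot be told apart.

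**Figure D1:**
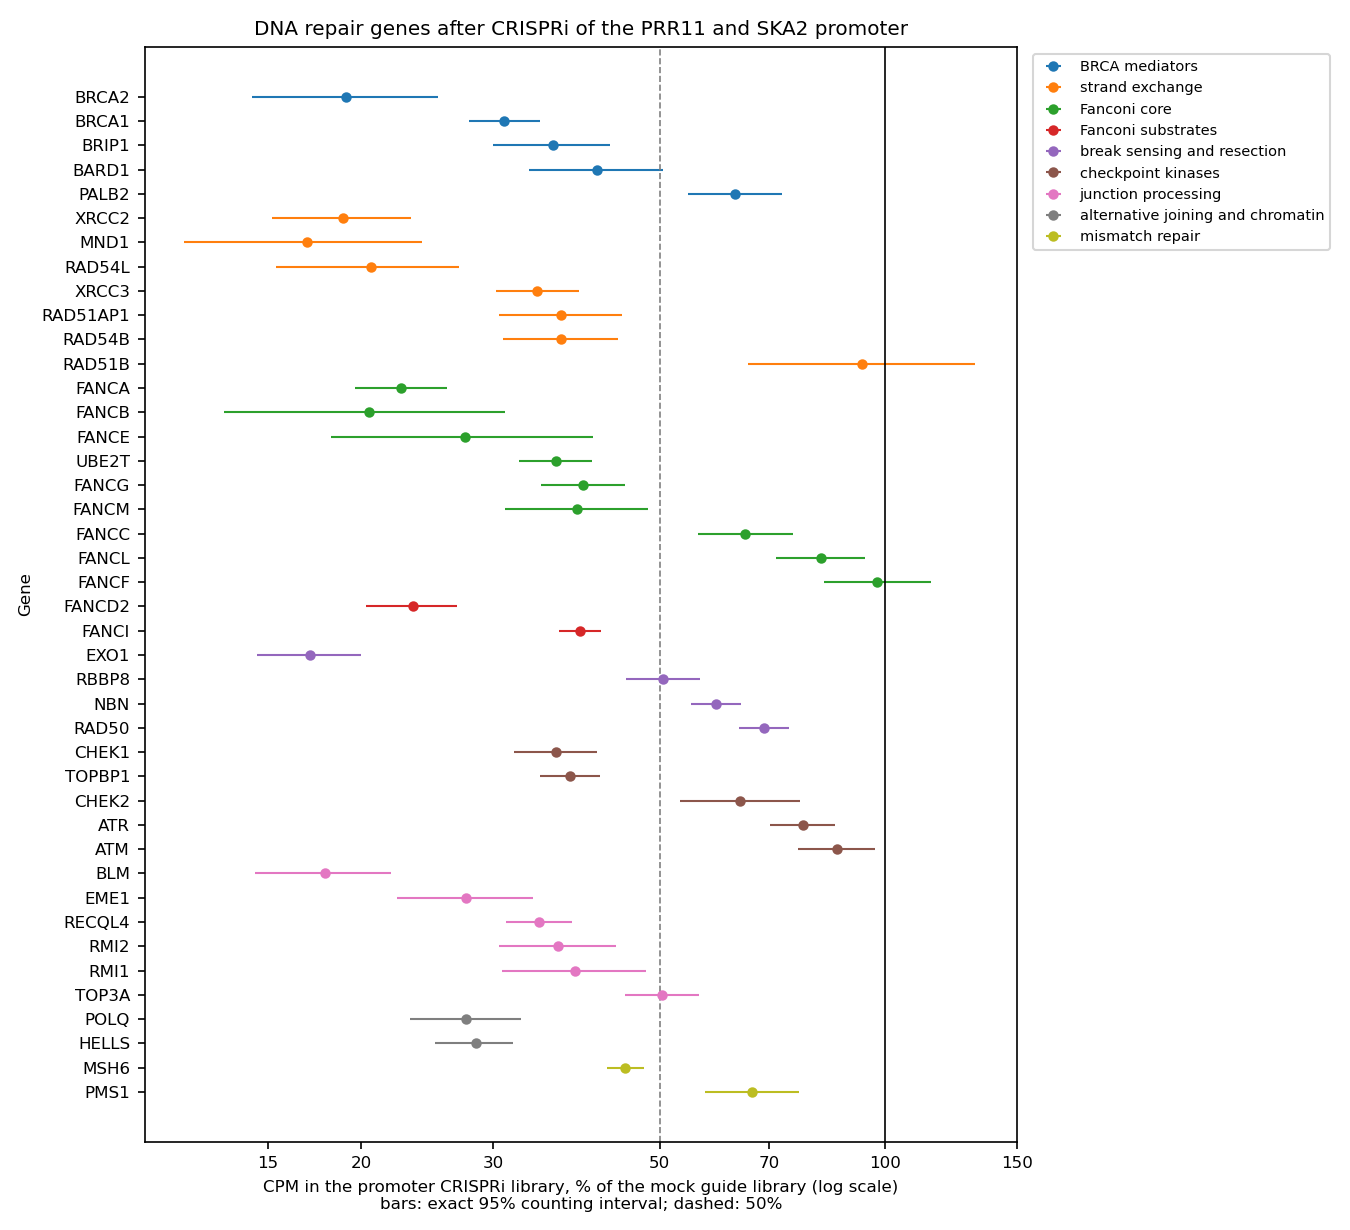
CPM of each of the 42 genes in the promoter CRISPRi library as a percentage of the mock guide library, on a log axis, grouped and coloured by role, with exact 95% counting intervals from 1 library per group. The points run from 16.9% for MND1 to 97.5% for FANCF, and 29 lie past the 2-fold line.

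Most genes of the BRCA group were low in the CRISPRi library. BRCA2, a mediator of strand exchange, stood at 2.77 CPM against 14.5 CPM in the mock library, or 5.23-fold lower with an interval of 3.96 to 7.0. BRCA1, the ubiquitin ligase that recruits PALB2, stood at 19.9 against 64.0 CPM. Its partner BARD1 stood at 6.30 against 15.3 CPM, and the helicase BRIP1 at 7.80 against 21.7 CPM. PALB2, the bridge between BRCA1 and BRCA2, stood at 14.5 against 22.9 CPM and was the member of this group not called. In this group 4 of 5 genes were lower, with a median log2 ratio of −1.42.

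Of the 7 genes for strand exchange, 6 were lower. XRCC2, a strand exchange factor that works beside RAD51B, stood at 4.76 CPM against 25.2 CPM, 5.30-fold lower with an interval of 4.29 to 6.60. MND1, an accessory factor of strand invasion best known in meiosis, stood at 1.68 against 9.93 CPM, which rests on 37 and 204 counts. RAD54L, a translocase that helps strands pair, stood at 2.90 against 14.1 CPM. The remaining lower genes were RAD54B, RAD51AP1 and XRCC3, at 34.3% to 36.9% of the control. RAD51B had 69 counts in each library, so its ratio of 0.931 had an interval of 0.657 to 1.32. Within this role the genes therefore spanned nearly the whole range of the 42 genes.

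The Fanconi genes divided in the same way. FANCD2, the substrate that receives ubiquitin, stood at 11.5 CPM against 49.1 CPM, 4.28-fold lower with an interval of 3.73 to 4.93. Its partner FANCI stood at 59.5 against 152 CPM. UBE2T, the enzyme that supplies the ubiquitin, stood at 20.3 against 55.9 CPM. In the core complex FANCA was at 11.1 against 48.9 CPM, a log2 ratio of −2.10. FANCB and FANCE, at 1.27 and 1.54 CPM in the CRISPRi library, were also lower and rest on 28 and 34 counts there. FANCG and the translocase FANCM stood at 39.5% and 38.8% of the control.

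The other 3 genes of the core complex were not called. FANCF, an adaptor of the core complex, had the ratio closest to equality of all 42 genes, at 14.3 CPM against 14.7 CPM. The ligase FANCL stood at 18.1 against 22.1 CPM and FANCC at 14.2 against 21.9 CPM. Members of one protein complex thus ranged from 20.5% to 97.5% of the control, and the intervals of FANCA (0.196 to 0.260) and FANCF (0.830 to 1.15) do not meet.

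Break sensing and resection held the lowest log2 ratio, −2.48 for EXO1. This exonuclease, which resects breaks and also removes mismatches, stood at 8.39 CPM against 49.1 CPM, 5.85-fold lower with an interval of 5.00 to 6.88. The other 3 genes of this role were not called. RBBP8, also known as CtIP, which starts resection, lay just outside the threshold at 20.9 against 41.3 CPM, a log2 ratio of −0.97. NBN and RAD50, which hold the break, stood at 59.5% and 68.9% of the control.

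Among the checkpoint proteins, CHEK1, the effector kinase of the replication checkpoint, stood at 15.7 against 43.1 CPM, and TOPBP1, the activator of ATR, at 29.6 against 77.8 CPM. The kinases that start the signal lay closer to the control: ATR stood at 77.7% and ATM at 86.2% of the control, with intervals that exclude equality. CHEK2, the effector kinase below ATM, stood at 9.07 against 14.2 CPM and was not called. In this role 2 of 5 genes were lower, with a median log2 ratio of −0.62.

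For junction processing, 5 of 6 genes were lower. BLM, the helicase that dissolves double Holliday junctions, stood at 4.99 CPM against 27.9 CPM, 5.6-fold lower with an interval of 4.56 to 6.93. Its partners RMI1 and RMI2 stood at 38.5% and 36.6% of the control. The topoisomerase of the same complex, TOP3A, lay just outside the threshold at 20.9 against 41.4 CPM. The nuclease subunit EME1 stood at 27.6% and the helicase RECQL4 at 34.5%. POLQ, the polymerase of alternative end joining, stood at 7.98 against 29 CPM, and HELLS, a chromatin remodeller, at 16.2 against 57.2 CPM. In mismatch repair, MSH6, which recognises the mispair, was the last gene inside the threshold at 82.5 against 184 CPM, and PMS1, a MutL homologue, stood at 66.4% and was not called.

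Other repair lists moved less in the CRISPRi comparison. Of 28 partners of homologous recombination and the Fanconi pathway, 10 were lower, none was higher and the median log2 ratio was −0.72; they ran from USP1, the enzyme that takes ubiquitin off FANCD2, at −1.85 to SWI5 at 0.73. Of 15 checkpoint partners 6 were lower, with a median of −0.83, from the phosphatase CDC25A at −2.09 to RNF8 at 0.25. Of 15 end joining genes 2 were lower, with a median of −0.41, from the kinase PRKDC at −1.26 to POLL at 0.48. Of 25 excision repair genes 2 were lower, with a median of −0.31, from LIG3 at −1.17 to MGMT at 0.88. None of the genes on these 4 lists was higher by the size rule. Over all measured genes 5.97% were lower and 9.43% higher, so the count of lower excision repair genes was near the share of all genes.

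Genes of proliferation were lower together with the repair genes. Of 20 genes in the proliferation reference list 18 were lower. Their log2 ratios had a median of −1.97 and a range from E2F2 at −3.03 to PCNA at −0.89; their summed level was 1080 CPM against 3520 CPM. Mitochondrial messages, a sign of RNA quality, had a median of 0.08 and 0 of 13 called. For the marker lists that follow, 9.43% of all measured genes were higher and 5.97% lower. Of 5 measured fibroblast markers 4 were higher, at a summed 36.1 against 12.8 CPM, while COL3A1 was at a log2 ratio of −0.82. Of 5 measured markers of HEK293 packaging cells 3 were higher, at 317 against 90.6 CPM, and of 2 measured immune markers 1 was higher, at 83.1 against 31.6 CPM. That marker was CD68, at a log2 ratio of 1.52, while CD3E had 0 counts in both libraries. Epithelial markers summed to 24300 against 26000 CPM, with 1 of 8 higher and 2 lower. Their log2 ratios ran from CDH1 at −1.59 to KRT19 at 2.62. The part of proliferation or of any other cell type in the repair gene values was not tested.

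The promoters of the 42 genes were searched for short words that E2F and cell cycle factors are known to read. RefSeq promoter sequences (GRCh38.p14, 250 bases before to 50 after the start) were matched for 37 genes. Of these, 25 were lower in the CRISPRi library and 12 were not called. Only the first listed promoter of each symbol was used, so other start sites were not searched. The windows of BRCA1 and RMI1 lie wholly upstream of their GENCODE genes. Those of RAD51B, RBBP8, HELLS, MSH6, FANCC, CHEK1, ATM, RAD50, PMS1, POLQ, TOPBP1 and CHEK2 begin inside their GENCODE genes. An E2F word, one of TTTCCCGC, TTTCGCGC, TTTGCCGC or TTTGGCGC on either strand, was found in 9 of the 37 (24.3%), against 908 of 27305 promoters of all genes (3.33%). It was found in 8 of the 25 lower genes (32.0%) and in 1 of the 12 others (8.33%). Among the genes with the word, HELLS, MSH6, TOPBP1 and FANCC have windows that begin inside the GENCODE gene. The split between lower and other genes thus rests partly on such windows. The CHR word TTTGAA was in 13.5% of the 37 and in 15.4% of all promoters, and CCAAT was in 45.9% and 35.7%. The CHR word shares its first 4 letters with TTTGCCGC and TTTGGCGC. Both strands were read, a promoter was counted once however many words it held, and a match is a description of the sequence only.

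The stretches around the E2F words are shown so that the words can be read in place. They belong to genes across the range of ratios, from EXO1, the lowest, to FANCC, which was not called. Each is written 5′ to 3′ on the strand of its gene, with the word in capitals and with at most 30 bases on either side. EXO1 (chr1:241848178-241848233, plus strand), XRCC2 (chr7:152676112-152676150, minus), MND1 (chr4:153344624-153344691, plus), FANCA (chr16:89816782-89816849, minus), FANCD2 (chr3:10026405-10026466, plus), HELLS (chr10:94545750-94545817, plus), TOPBP1 (chr3:133661912-133661978, minus) and MSH6 (chr2:47783118-47783174, plus) were lower, and FANCC (chr9:95317718-95317785, minus) was not called.
EXO1: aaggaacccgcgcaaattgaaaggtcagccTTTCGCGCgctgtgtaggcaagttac
XRCC2: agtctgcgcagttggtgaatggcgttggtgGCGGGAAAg
MND1: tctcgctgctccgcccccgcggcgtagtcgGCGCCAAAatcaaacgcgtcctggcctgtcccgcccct
FANCA: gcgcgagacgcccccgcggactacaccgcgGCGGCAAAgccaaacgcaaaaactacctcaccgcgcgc
FANCD2: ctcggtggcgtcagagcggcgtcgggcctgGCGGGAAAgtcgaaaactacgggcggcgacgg
HELLS: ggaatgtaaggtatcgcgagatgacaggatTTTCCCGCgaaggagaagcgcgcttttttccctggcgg
TOPBP1: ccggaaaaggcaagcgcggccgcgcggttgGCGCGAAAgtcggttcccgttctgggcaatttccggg
MSH6: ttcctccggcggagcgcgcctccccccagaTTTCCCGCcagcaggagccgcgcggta
FANCC: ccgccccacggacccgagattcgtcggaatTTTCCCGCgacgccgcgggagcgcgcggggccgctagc

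The word began at 4 bases after the start in EXO1, 3 after in MSH6, 2 before in FANCD2 and 7 before in TOPBP1, and at 21 bases after the start in XRCC2. In MND1 it began 34 bases before the start and in FANCA 172 before. The stretches shown begin 8 bases before the start in HELLS and 46 before in FANCC, counted at the word, and each of these genes held a further word, 76 and 172 bases before the start. The words of EXO1, MSH6, FANCC and HELLS in the stretches shown read on the gene's own strand, and those of XRCC2, MND1, FANCA, FANCD2 and TOPBP1 on the opposite strand. BLM and BRCA2, with ratios as low as these genes, held none of the 4 words in the window.

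With TOP3A taken as the sum of its entries, none of the 42 genes passed the 2-fold rule in any of the 8 other comparisons. All 29 calls thus came from the CRISPRi pair. For LV-PRR11 the median log2 ratio of the repair genes was 0.00, with 21 of 42 below 0 and a range from RAD54B at −0.26 to BRCA2 at 0.18; over all genes 0.119% were lower and 0.179% higher. For the library labelled LV-SKA2 the median was −0.09, with 32 below 0 and a range from MND1 at −0.32 to RAD54L at 0.12, beside 0.111% of all genes lower and 0.141% higher. For the library labelled LV-P+S the median was −0.03, with 27 below 0 and a range from RAD51AP1 at −0.30 to FANCL at 0.18, beside 0.127% lower and 0.134% higher. These 3 comparisons share LV-vector-PS as their control. The spread of the 42 genes was narrow in all 3.

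**Figure D2:**
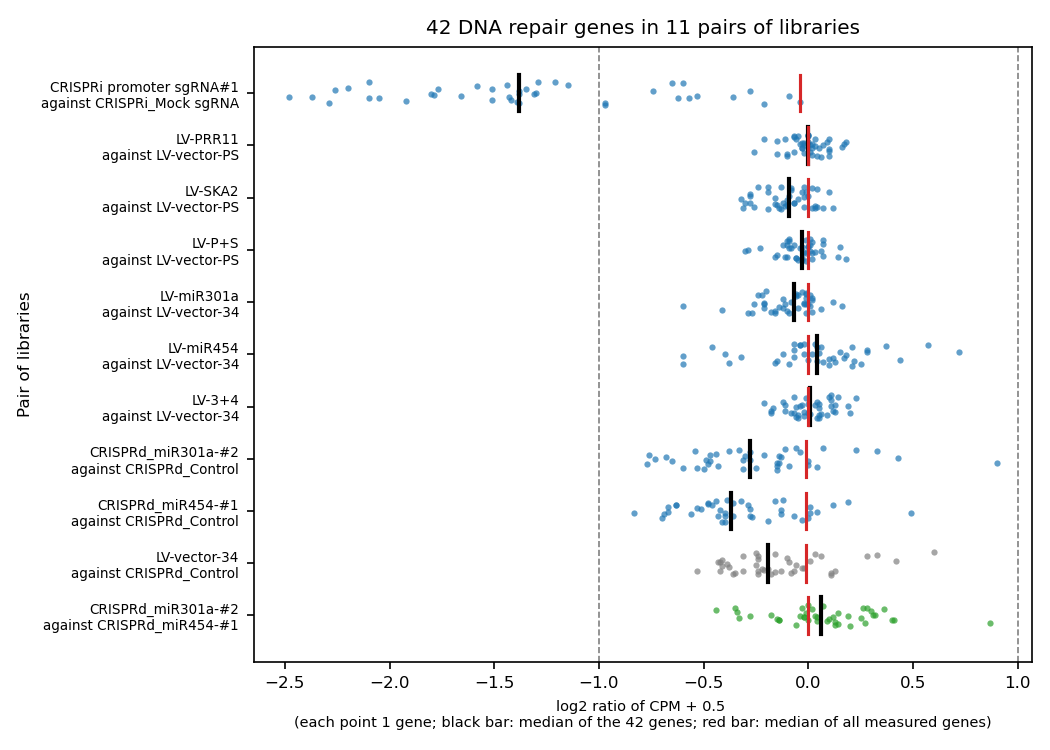
Log2 ratio of CPM + 0.5 for the 42 genes in 9 comparisons with a control, in the pair of control libraries (grey) and between the knockouts (green); each point is 1 gene, the black bar the median of the 42 genes and the red bar that of all measured genes. The CRISPRi points reach −2.48, and no other pair has a point past the dashed lines at 1 and −1.

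The 4 libraries of the PRR11 and SKA2 set form a layout of 2 labels by 2, which allows an additive fit with 1 residual degree of freedom. Its p-value weighs a label against the departure from additivity of these 4 libraries and not against replicate cultures. For the SKA2 label, 5 of the 42 genes were called lower and 0 higher by edgeR's quasi-likelihood test at a Benjamini-Hochberg adjusted p under 0.05 over 13330 genes, among which 2.32% were lower and 3.58% higher. The 42 genes had a median log2 effect of −0.06 under the SKA2 label, against 0.00 for all genes, and 30 of 42 lay below 0. SKA2 counts were below the vector in both libraries that carry the label, so these values describe the labelled libraries.

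The 5 genes belong to resection, strand exchange, junction processing and the checkpoint. EXO1 stood at 36.6 CPM in LV-vector-PS, 39.4 in LV-PRR11, 29.5 in the library labelled LV-SKA2 and 32.7 in the library labelled LV-P+S. Its log2 effect was −0.29 (SE 0.0644, edgeR adjusted p = 0.00091). Both libraries with the SKA2 label lay below both without it. RMI1 stood at 19.8, 20.4, 16.2 and 16.1 CPM in those 4 libraries, an effect of −0.31 (SE 0.0867, edgeR adjusted p = 0.011). RAD51AP1, an accessory factor of strand exchange, stood at 18.6, 18.2, 15 and 15 CPM, an effect of −0.29 (SE 0.0909, edgeR adjusted p = 0.032). In both genes the libraries with the label again lay below those without it. The 5 genes were called from these same libraries, so that order is not a separate check. CHEK1 stood at 47.2, 47.7, 39.8 and 42.4 CPM, an effect of −0.20 (SE 0.0589, edgeR adjusted p = 0.017). RAD50 stood at 162, 165, 148 and 152 CPM, an effect of −0.12 (SE 0.0405, edgeR adjusted p = 0.042). All 5 effects were under 1.5-fold in size, and the proliferation list had medians of −0.02 for the library labelled LV-SKA2 and −0.07 for the library labelled LV-P+S, each against the vector.

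The calls depended on the tool. DESeq2 with the same layout called 0 of the 42 genes, gave none of them an adjusted p, and had 0 at an unadjusted p under 0.05, where edgeR had 9. Over all genes it called 45 of the 925 to which it gave an adjusted p. Without the filter on low counts edgeR called 4, and RAD50 was not among them. For the PRR11 label edgeR called 0 of the 42 genes, beside 0.848% of all genes lower and 0.308% higher, with 4 at an unadjusted p under 0.05. The smallest adjusted p was 0.13, for UBE2T, and DESeq2 called 0 with 0 at an unadjusted p under 0.05.

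**Figure D3:**
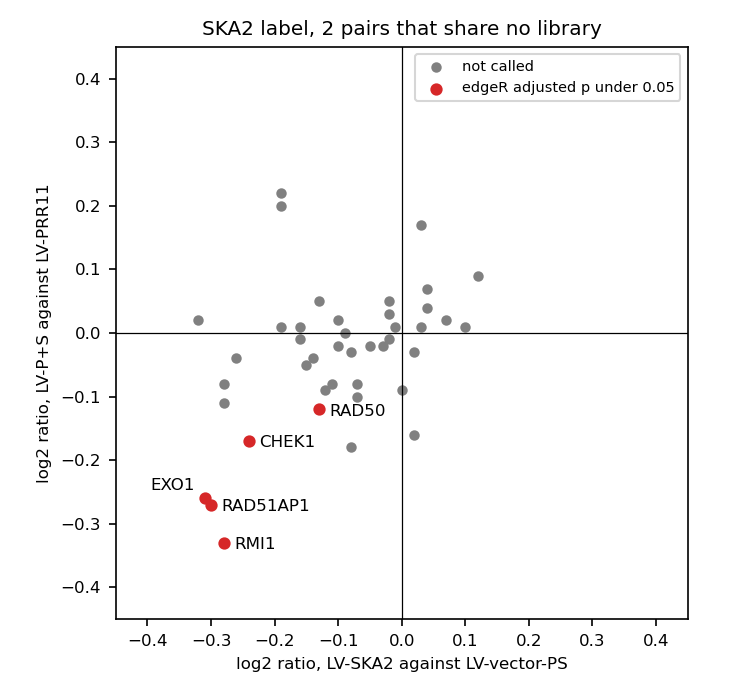
Log2 ratio of the 42 genes in the library labelled LV-SKA2 against LV-vector-PS (horizontal) and in the one labelled LV-P+S against LV-PRR11 (vertical), pairs that share no library; red points are the 5 genes called by edgeR for the SKA2 label. All 5 lie below 0 on both axes, between −0.12 and −0.33. They were called from these same libraries, so the shared sign is not a separate check.

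Among the microRNA libraries, LV-miR454 had the widest spread of the repair genes and the library labelled LV-3+4 a narrow one. For the library labelled LV-miR301a the median log2 ratio was −0.07, with 34 of 42 genes below 0, from RAD54B at −0.60 to POLQ at 0.16; 0.372% of all genes were lower and 0.359% higher. For LV-miR454 the median was 0.04, with 17 below 0, beside 3.42% of all genes lower and 2.97% higher. For the library labelled LV-3+4 the median was 0.01, with 20 below 0, from FANCB at −0.21 to FANCE at 0.23, beside 0.36% lower and 0.285% higher. The 3 comparisons share LV-vector-34. The additive fit over these 4 libraries called 0 of the 42 genes for either label with edgeR (0 at an unadjusted p under 0.05) and 0 with DESeq2. Over all genes edgeR called 0.0% in either direction for the miR301a label, and 0.00683% lower and 0.0% higher for the miR454 label.

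In LV-miR454 the genes went both ways within 2-fold. HELLS had the highest ratio, at 75.3 CPM against 45.5 CPM in LV-vector-34, with 49.6 CPM where the label is LV-miR301a and 51.9 where it is LV-3+4. BRIP1 stood at 29.4 against 19.6 CPM and BARD1 at 18.4 against 13.4 CPM. The counting intervals of 12 genes lay above equality and those of 6 lay below, while over all genes the shares were 28.8% above and 28.5% below. RAD54B stood at 22.1 against 33.9 CPM and NBN at 58.4 against 89.0 CPM, both with a log2 ratio of −0.60. The proliferation list had a median of 0.35 in this pair. Of 8 epithelial markers 1 was higher, KRT19 at a log2 ratio of 3.55, and 1 lower, CDH1 at −1.03. Of 3 measured fibroblast markers 2 were higher and 1 lower, and of 4 measured HEK293 markers 1 was lower. Over all genes 3.42% were lower and 2.97% higher. The part of these lists in the repair gene values was not tested. RAD54B, a relative of RAD54L that remodels DNA during strand exchange, was also at 22.2 CPM where the label is LV-miR301a and at 29.9 where it is LV-3+4, so its vector library was the highest of the 4.

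In the knockout libraries most repair genes were modestly lower than in CRISPRd_Control. For CRISPRd_miR301a-#2 the median log2 ratio was −0.28, with 36 of 42 genes below 0 and 0 called, beside 4.15% of all genes lower and 6.72% higher. For CRISPRd_miR454-#1 the median was −0.37, with 36 below 0 and 0 called, beside 3.1% lower and 6.62% higher. Counting intervals lay wholly below equality for 25 and 28 genes, against 32.2% and 31.6% of all genes. The 2 comparisons share CRISPRd_Control. The other control library of the same table, LV-vector-34, also lay below CRISPRd_Control, with a median of −0.19 and 32 of 42 genes below 0, beside 1.73% of all genes lower and 2.62% higher. Against LV-vector-34 the medians of the knockouts were −0.12 and −0.13.

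Both knockouts lay below both control libraries for 21 of the 42 genes and above both for 2; over 15504 genes those shares were 28.0% and 25.1%. BRCA1 was one of the 21, at 48.9 CPM in CRISPRd_miR301a-#2 and 48.0 in CRISPRd_miR454-#1, against 78.6 in CRISPRd_Control and 59.8 in LV-vector-34. BRCA2 stood at 10.2 and 10.1 CPM against 16.4 and 12. XRCC2 had the lowest ratio to CRISPRd_Control in CRISPRd_miR301a-#2, at 11.4 CPM there and 14.4 in the other knockout, against 19.8 and 14.7. For both genes the lower control was LV-vector-34. Against it, XRCC2 was at 98.5% in CRISPRd_miR454-#1 and at 77.6% in CRISPRd_miR301a-#2, with an interval of 64.6% to 93.1% in the second. TOP3A stood at 33.0 and 33.8 CPM against 54.9 and 47.2. This gene is split into 2 entries there, and the values here are their sum. Taken alone, the first entry passed the 2-fold rule as lower in both knockouts, at log2 ratios of −1.30 and −1.69. It also did so in LV-vector-34 against CRISPRd_Control, at −1.12. The numbered entry was not called in these pairs, at −0.42, −0.27 and 0.18.

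The 2 genes above both controls were kinases of the checkpoint. CHEK2 had the highest ratio of the 42 genes in both knockouts, at 33.8 CPM in CRISPRd_miR301a-#2 and 25.4 in CRISPRd_miR454-#1, against 17.9 in CRISPRd_Control and 21.8 in LV-vector-34. Its ratio to CRISPRd_Control was 1.89 in the first, with an interval of 1.66 to 2.16, a log2 ratio of 0.90 that is just inside 2-fold. ATM stood at 38.6 and 31.1 CPM against 28.5 and 30.9, so in CRISPRd_miR454-#1 it was level with LV-vector-34 within counting error.

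NBN separated the knockouts. It stood at 60.0 CPM in CRISPRd_miR301a-#2 and 32.7 in CRISPRd_miR454-#1, a ratio of 1.84 with an interval of 1.66 to 2.03, the highest of the 42 genes in that direct pair. No repair gene was called there, beside 3.65% of all genes lower and 2.77% higher in CRISPRd_miR301a-#2. The controls themselves differed at NBN, at 58.5 CPM in CRISPRd_Control and 89.0 in LV-vector-34. Against CRISPRd_Control the CRISPRd_miR454-#1 library was at 55.9%, and against LV-vector-34 it was at 36.8% and passed the 2-fold rule, as did 3.38% of all genes in that direction. The lentiviral library LV-miR454, at 58.4 CPM, was likewise below LV-vector-34 and level with CRISPRd_Control.

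**Figure D4:**
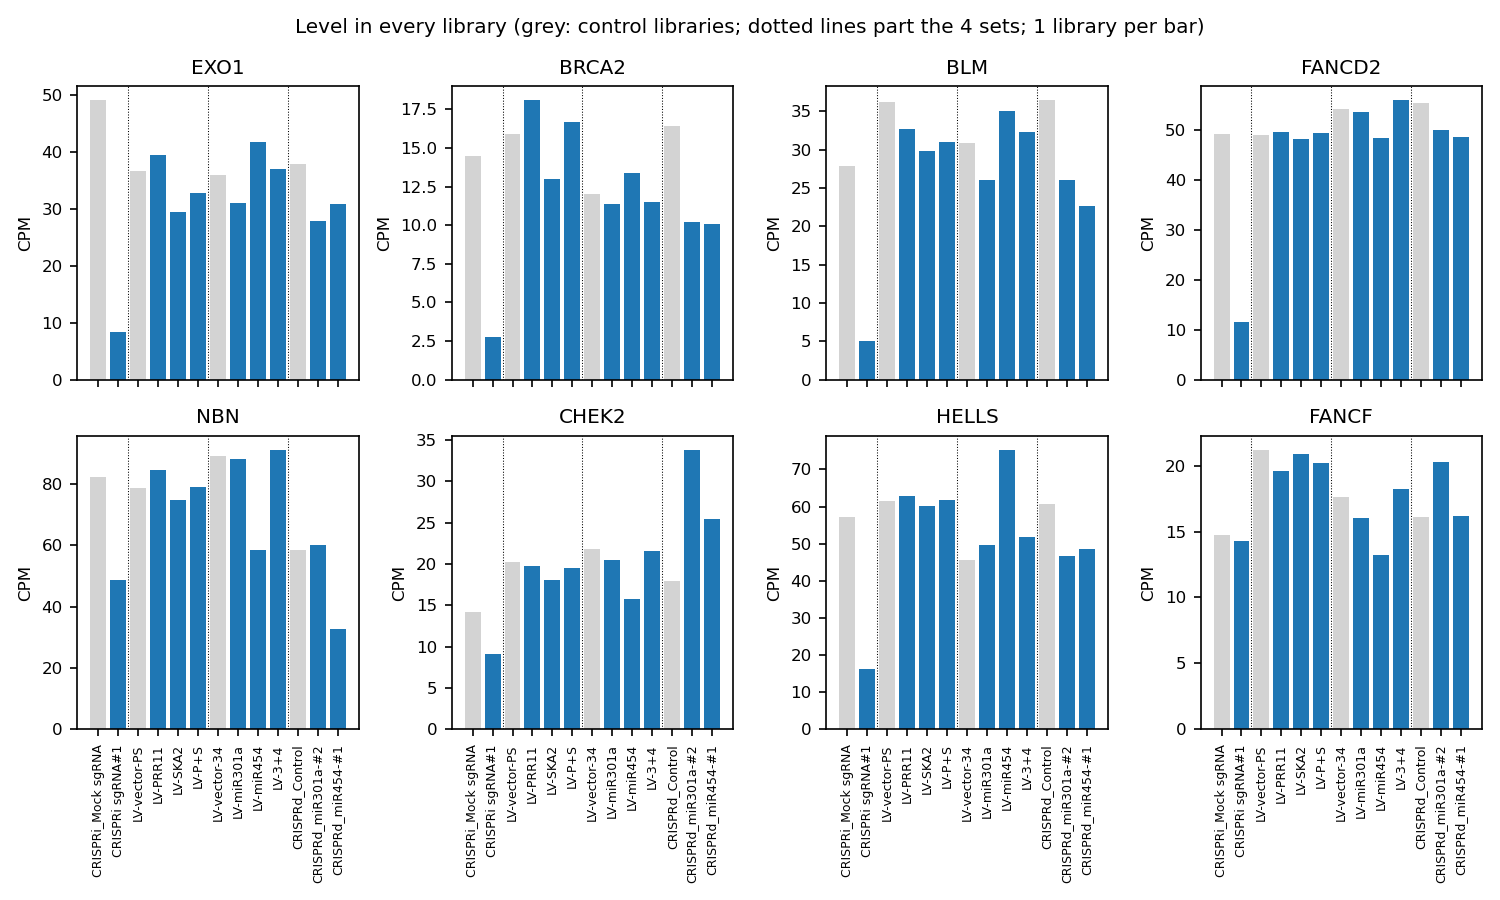
CPM of 8 repair genes in all 13 libraries, 1 library per bar, with control libraries in grey and dotted lines between the 4 sets. EXO1, BRCA2, BLM and FANCD2 are lowest in the CRISPRi library, NBN is lowest in CRISPRd_miR454-#1 at 32.7 CPM, CHEK2 is highest in CRISPRd_miR301a-#2, and FANCF is level in the CRISPRi pair.

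In the knockouts some other gene lists were lower with the repair genes. Others lay closer to all measured genes, whose median was −0.01 in both. The proliferation list had medians of −0.33 in CRISPRd_miR301a-#2, −0.50 in CRISPRd_miR454-#1 and −0.17 in the pair of control libraries. End joining genes had medians of −0.03 and −0.09 and excision repair genes −0.13 and −0.09 in the knockouts. Medians were −0.35 and −0.44 for the 28 recombination and Fanconi partners, and −0.24 and −0.47 for the checkpoint partners. Of the 28, 1 was lower in each knockout, HROB, at −1.13 and −1.10, beside 4.15% and 3.1% of all genes. The shares of all genes that were higher were 6.72% and 6.62%. Cell identity markers differed as well: of 8 epithelial markers 3 were higher and 1 lower in each knockout, with KRT19 at 0 and 0.0549 CPM against 18 CPM, and summed levels of 28900 and 32000 CPM against 17100. The control library LV-vector-34 differed from CRISPRd_Control too, with KRT19 at a log2 ratio of −2.67 and epithelial markers at 22400 against 17100 CPM. Of the measured immune markers, 3 of 3 and 2 of 2 were higher, while CD3E had 0 counts. Of 2 measured fibroblast markers 1 was lower in each, at a summed 11.7 and 16.2 against 19.4 CPM, and HEK293 markers summed to 57.5 and 87.0 against 63.0 CPM. Within those sums NEFL was higher in both knockouts, at log2 ratios of 2.37 and 2.15, and at 2.14 in the control pair, while CDH2 was at −5.72 in CRISPRd_miR301a-#2 and −0.59 in CRISPRd_miR454-#1. Their part in the repair gene values was not tested.

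Across the 42 genes, the CRISPRi log2 ratios correlated with those of CRISPRd_miR301a-#2 at Pearson's r = 0.40 (Spearman's rho 0.36) and of CRISPRd_miR454-#1 at r = 0.41 (rho 0.40), while over all shared genes r was −0.03 and 0.13. With LV-miR454 the r was −0.43 (rho −0.43), against 0.22 over all genes. With the 3 PRR11 and SKA2 libraries r lay between 0.02 and 0.09. These pairs share no library, genes are not independent replicates, and genes that follow proliferation share that feature, so the values are descriptions. Over the 13 libraries, 39 of the 42 genes had their lowest CPM in the CRISPRi library, with FANCF, NBN and ATR as the exceptions. The tables were scaled separately, and the share of all genes lowest in that library was not counted. All 42 genes already lay below the mock guide library, so this count is not a separate result.

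The mature microRNAs of the unit were read against the 3′ UTRs of the repair genes. Both lie on chromosome 17 and share a seed, bases 2 to 8 in capitals, so a site for one is a site for the other.
hsa-miR-301a-3p: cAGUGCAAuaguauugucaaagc
hsa-miR-454-3p: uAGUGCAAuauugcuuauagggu
A match to the seed, TTGCACT, was present in the longest annotated 3′ UTR (GENCODE release 29) of 6 of the 42 genes (14.3%), against 14% of 19094 coding genes, namely XRCC2, FANCA, NBN, RBBP8, ATM and TOPBP1. The longer match TTGCACTA was present in 1, FANCA (2.38%), against 2.81% of all genes. The sites of FANCA and RBBP8 are shown, with the match in capitals, so that the seed can be read against them; the others are named only.
FANCA (chr16:89738521-89738528, minus strand): ggagctcttgTTGCACTAaaaagtgga
RBBP8 (chr18:23026423-23026429, plus strand): cgctttcattTTGCACTctaacttaag
The stretches share only the 7 letters of the match. FANCA, with the longer match, had a log2 ratio of 0.37 in LV-miR454 and of −0.12 in the library labelled LV-miR301a, beside −0.15 and −0.40 in the knockouts. NBN, with a site, had log2 ratios of −0.60 in LV-miR454 and −0.01 in the library labelled LV-miR301a, beside 0.04 and −0.83 in the knockouts of miR-301a and miR-454. XRCC2, RBBP8, ATM and TOPBP1 had log2 ratios from −0.16 to 0.21 in those lentiviral libraries and from −0.77 to 0.43 in the knockouts.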

How the data were processed

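The authors deposited 3 tables of RSEM expected counts per gene, 1 library per group. Bowtie2 2.3.5.1, RSEM 1.3.3 and the genome GRCh38.p13 are named, per the submitters' processing notes. The annotation and the use of strand in counting were not stated there. Reads of overlapping or antisense genes therefore cannot be told apart. Expected counts were rounded. For the CRISPRi libraries, 181 entries that name no gene (0.355% and 0.431% of counts) were left out. For the microRNA and knockout libraries, 4838 numbered copies of a symbol (2.02% of counts) were summed per symbol. TMM scaling was done separately per table with edgeR 4.0.16 in R 4.3.3. To count as measured, a gene needed at least 1 CPM in either library of a pair and 20 reads over both. The size rule, a log2 ratio of CPM + 0.5 of at least 1 in size with an exact 95% interval excluding equality, covers counting error only. With 1 library per group no replicate spread exists. Additive edgeR quasi-likelihood fits used genes at 1 CPM in at least 2 libraries; DESeq2 1.42.0 was the alternative. The size rule and the fits were tested on simulated data. Words in promoters and 3′ UTRs were searched with Python 3.11.15.

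The 42 genes and all lists were chosen with earlier results of these data known. Genes were named by role, with the 6 largest and 3 smallest ratios where more than 12 were called, every additive call, and the largest and smallest ratio of each pathway list; remaining genes are given by percentage or count. Sequences are from RefSeq (GRCh38.p14, 37 of 42 promoters matched) and GENCODE release 29. Alternatives covered size factors, filters, the pseudocount, the fold threshold and the control library. A few items are not reported here.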

Additional observations from a re-analysis of the deposited data

How the results depend on the processing

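The 29 lower and 0 higher repair genes of the CRISPRi comparison stayed within 1.5 times of that count under other size factors, filters, a pseudocount of 2 CPM and a 1.5-fold threshold. Of 219 recomputed values, 198 stayed the same, meaning counts within 1.5 times and medians within the typical counting interval of a gene, and 21 moved. Many of the 198 were counts of 0 that stayed 0, so the tally says little about those pairs. The limit for medians is wide, because it is the counting interval of a single gene. No value that passed the 2-fold rule changed sign; TOP3A, which did not pass it, did so as given below. At 1.5-fold the counts that were 0 became 1 lower in the library labelled LV-miR301a (1.13% of all genes), 2 lower and 1 higher in LV-miR454 (10.1% and 8.16%), 6 lower and 1 higher in CRISPRd_miR301a-#2 (10.9% and 13.6%), 7 lower in CRISPRd_miR454-#1 (9.2%), 1 higher in LV-vector-34 against CRISPRd_Control (6.65%) and 1 higher between the knockouts (6.62%), because the rule is wider. With LV-vector-34 as control, 1 gene was lower in CRISPRd_miR454-#1, NBN, beside 3.38% of all genes. The median log2 ratio of that knockout moved from −0.37 to −0.13, and the cause was not tested. That of CRISPRd_miR301a-#2 went from −0.28 to −0.12, which the wide limit for medians counts as the same. For the SKA2 label DESeq2 gave none of the repair genes an adjusted p, so none of them could be called. Why those values were missing was not tested. Scaling by plain totals moved the median of all genes in CRISPRd_miR454-#1 from −0.01 to −0.12 and that of the repair genes from −0.37 to −0.48. TOP3A has 2 entries in the microRNA and knockout libraries that share reads in shifting proportion. Taking each alone was an alternative chosen after seeing the data. In the library labelled LV-miR301a they gave log2 ratios of 1.94 and −6.10, both past the 2-fold rule, where their sum gave −0.27. In LV-miR454 the first entry passed the rule at 1.10 and the numbered entry, at −0.49, did not. The numbered entry gave 0.18 in LV-vector-34 against CRISPRd_Control, where the sum gave −0.21. No paired analysis was possible because each group holds 1 library and the labels give no shared replicate numbers; leaving out a replicate was likewise not possible. Each comparison of 2 libraries has no replicate check.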
